A study of Mus musculus with 12 samples.

Results

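The glutamate, GABA and amino acid transporters described here are 6 carrier genes of the plasma membrane, Slc1a3, Slc1a2, Slc1a4, Slc6a11, Slc7a10 and Slc38a3, out of 19505 genes measured. They were taken by their symbols, with earlier results of these data known, and each was read from the only transcript cluster annotated to it. A transcript cluster is the set of array probes that report one gene. RNA came from white matter astrocytes of C57BL/6 mice, in 4 groups of 3 independent replicates, each on its own array, which made 12 arrays. The groups were wild-type mice after 0, 3 or 12 weeks on powdered food with 0.2% (w/w) cuprizone, and GnT-IX-deficient mice after 12 weeks on that food. Cuprizone binds copper, damages oligodendrocytes and causes loss of myelin, and GnT-IX, the product of Mgat5b, is a glycosyltransferase that branches sugar chains in the brain. Feeding began at 8 to 12 weeks of age in every group. Only this age at the start is given, so weeks of diet may have gone with age at sampling. No group of GnT-IX-deficient mice at 0 weeks was analysed here. Cells were freed from white matter with papain, Fc receptors were blocked, and astrocytes were pulled out with magnetic beads against GLAST, the protein of Slc1a3. One of the 6 genes thus encodes the antigen used to collect the cells.

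Astrocytes clear neurotransmitters from the space between cells and feed amino acids back to their neighbours. GLAST (Slc1a3) and GLT-1 (Slc1a2) are driven by the sodium gradient and take up glutamate, which glutamine synthetase turns into glutamine. SNAT3 (Slc38a3) passes that glutamine out of the cell, GAT-3 (Slc6a11) takes up GABA, and ASCT1 (Slc1a4) and Asc-1 (Slc7a10) exchange serine, alanine, glycine and other small neutral amino acids.

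Promoter sequences for 5 of the 6 genes were found in the RefSeq table for GRCm38.p6, each running from 250 bases before to 50 bases after an annotated start; Slc38a3 is only named here. Base composition set these windows apart from each other. A single annotated start was read for each gene, and windows at other starts may differ. For the carrier gene Slc7a1, windows at different starts held 65% and 51.7% G and C with 27 and 7 CpG pairs. Slc1a3 and Slc1a2 held 45.3% and 45.7% G and C with 3 and 1 CpG pairs, whereas Slc1a4, Slc6a11 and Slc7a10 held 65%, 72.3% and 70.7% with 21, 32 and 24. The medians over 32851 such promoters of 27025 genes were 52.7% and 7. The promoters of Slc1a2 and Slc7a10, a pair of genes that were both lower after 3 weeks, are printed because they show this contrast, 5′ to 3′ on the strand of the gene, with CpG pairs in capitals. Slc1a2 lies at chr2:102706188-102706487 (plus strand) and Slc7a10 at chr7:35186135-35186434 (plus strand).
Slc1a2: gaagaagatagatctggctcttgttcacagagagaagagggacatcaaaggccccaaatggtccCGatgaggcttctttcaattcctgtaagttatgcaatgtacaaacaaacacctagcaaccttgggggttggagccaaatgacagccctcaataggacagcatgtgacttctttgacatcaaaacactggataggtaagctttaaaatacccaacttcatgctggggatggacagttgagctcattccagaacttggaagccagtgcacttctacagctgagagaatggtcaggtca
Slc7a10: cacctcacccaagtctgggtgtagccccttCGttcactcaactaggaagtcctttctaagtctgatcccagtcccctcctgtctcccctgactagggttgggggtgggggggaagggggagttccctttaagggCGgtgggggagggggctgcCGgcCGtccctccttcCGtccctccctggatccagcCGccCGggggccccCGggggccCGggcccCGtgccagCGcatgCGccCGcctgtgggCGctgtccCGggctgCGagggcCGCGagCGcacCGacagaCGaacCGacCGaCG

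A sequence search asked whether the 5 promoters shared letters for factors that act on amino acid supply or in astrocytes. It used 5 motifs on both strands: TGATGNAA, the amino acid response element (CARE) bound by ATF4, the factor that cells raise when amino acids run short; the full palindrome bound by NFI dimers; AACAAT for SOX; TCACNCCAC for SREBP; and TATAAA. These letters occurred in 3.97%, 0.0365%, 10.7%, 1.24% and 13.6% of all promoters of that length. Of the 5 transporters, CARE letters occurred in 1, Slc1a4, where they began 4 bases before the annotated start, and TATAAA in 1, Slc1a3, 161 bases before it. The other motifs had no match in these windows, and no matches overlapped. Slc7a11, which encodes the cystine/glutamate exchanger xCT and is a textbook ATF4 target, carried CARE letters 66 and 47 bases before its start. It is printed beside Slc1a4 for comparison, with the CARE letters in capitals. Slc1a4 lies at chr11:20332664-20332963 (minus strand) and Slc7a11 at chr3:50443564-50443863 (minus strand). A match of letters is a description and not a binding site.
Slc1a4: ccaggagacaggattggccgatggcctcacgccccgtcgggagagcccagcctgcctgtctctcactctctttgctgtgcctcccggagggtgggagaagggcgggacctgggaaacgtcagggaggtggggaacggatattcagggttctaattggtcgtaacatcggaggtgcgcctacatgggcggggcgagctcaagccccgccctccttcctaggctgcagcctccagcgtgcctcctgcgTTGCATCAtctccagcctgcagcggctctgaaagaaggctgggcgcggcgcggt
Slc7a11: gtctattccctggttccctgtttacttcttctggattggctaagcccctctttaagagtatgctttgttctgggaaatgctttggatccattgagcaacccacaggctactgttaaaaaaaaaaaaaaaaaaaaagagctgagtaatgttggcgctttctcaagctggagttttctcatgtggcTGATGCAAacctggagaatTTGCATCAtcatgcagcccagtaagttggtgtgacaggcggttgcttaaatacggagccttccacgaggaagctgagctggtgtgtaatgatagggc

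Values are log2 levels from RMA, a method that corrects background, sets all arrays to a like distribution and sums up the probes of a transcript cluster. Array medians lay between 5.38 and 5.45. Differences below are on the log2 scale, and levels of different genes are not compared, since each has its own probes. They were tested with limma, a linear model with 1 mean per group over all 12 arrays, and p-values were adjusted by Benjamini-Hochberg over 19505 genes with a threshold of 0.05. The targeted gene Mgat5b measured 3.70, 4.19 and 4.06 in GnT-IX-deficient arrays against 5.80 ± 0.21 (SD, n = 3) in wild type at 12 weeks and fell by 1.82 (SE 0.21, limma adjusted p = 0.00159). Markers of astrocytes were bright in all groups, with means over 11 of 12 listed genes from 8.69 to 9.92, but other cells were present. The mean of 13 of 15 microglia and macrophage markers ran from 5.00 to 5.55 at 0 weeks, 6.51 to 8.87 at 3 weeks, 7.96 to 9.09 at 12 weeks and 7.26 to 8.27 in GnT-IX-deficient arrays. Oligodendrocyte marker means per group lay between 8.98 and 9.67. In such RNA, fewer cells of a type and less RNA per cell cannot be told apart.

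Slc1a3 and Slc1a2 stood highest in mice not yet given cuprizone. Slc1a3 measured 8.84, 8.19 and 8.01 at 0 weeks, 7.00, 7.50 and 6.49 at 3 weeks, 7.24, 7.05 and 7.61 at 12 weeks, and 7.51, 6.92 and 7.37 in GnT-IX-deficient mice. All 9 arrays from cuprizone-fed mice were below the lowest of the 3 arrays at 0 weeks. Slc1a3 fell by 1.35 after 3 weeks (SE 0.27, limma adjusted p = 0.0150), from 8.35 ± 0.44 to 7.00 ± 0.51 (SD, n = 3 each), to a ratio of 0.392. Because cells were selected on the protein of this gene, its level describes the cells the beads retained.

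Slc1a2, which encodes the carrier that handles most glutamate uptake in the forebrain, measured 11.63, 11.58 and 11.44 at 0 weeks, 10.72, 11.07 and 10.39 at 3 weeks, 11.34, 11.08 and 11.37 at 12 weeks, and 11.20, 10.56 and 10.84 in GnT-IX-deficient mice. The arrays at 0 weeks again lay above all others. Here the 12-week arrays came closest to them, and replicate 2 of that group, at 11.08, was only just above the highest 3-week array. At 3 weeks Slc1a2 fell by 0.82 (SE 0.20, limma adjusted p = 0.0395).

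The glutamine carrier Slc38a3 had the tightest replicates of the 6 at 0 weeks, with 11.67, 11.57 and 11.65 (SD 0.053). It measured 10.51, 10.71 and 10.54 at 3 weeks, 11.02, 10.88 and 11.14 at 12 weeks, and 11.31, 10.83 and 10.85 in GnT-IX-deficient mice. The 3 wild-type time points did not overlap: 0 weeks was highest, 3 weeks lowest and 12 weeks between. Slc38a3 fell by 1.04 at 3 weeks (SE 0.17, limma adjusted p = 0.00429), to a ratio of 0.485.

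The GABA transporter Slc6a11 had the widest spread of the 6 genes at 3 weeks and in GnT-IX-deficient mice. It measured 10.82, 10.68 and 10.68 at 0 weeks (SD 0.081), 9.41, 10.37 and 10.38 at 3 weeks (SD 0.56), 10.23, 9.71 and 9.97 at 12 weeks, and 10.66, 9.21 and 9.42 in GnT-IX-deficient mice (SD 0.78). One 3-week array was about 1 unit below the other two, and GnT-IX-deficient replicate 1 reached almost the level of 0 weeks. Its difference at 3 weeks was -0.67 (SE 0.33) and did not pass the test (limma adjusted p = 0.330).

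Of the neutral amino acid exchangers, Slc7a10 showed the largest difference of the 6 genes at 3 weeks. Slc7a10 measured 10.32, 10.05 and 9.86 at 0 weeks, 8.20, 8.75 and 8.54 at 3 weeks, 9.17, 8.53 and 9.01 at 12 weeks, and 9.18, 8.67 and 7.81 in GnT-IX-deficient mice. No array from a cuprizone-fed mouse came within the range of 0 weeks. The 3-week mean was 8.50 ± 0.28 against 10.08 ± 0.23 (SD, n = 3 each), so that Slc7a10 fell by 1.58 (SE 0.29, limma adjusted p = 0.00833), to a ratio of 0.334.

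Slc1a4 measured 8.83, 8.98 and 8.93 at 0 weeks, 7.83, 8.25 and 8.14 at 3 weeks, 8.31, 7.98 and 8.27 at 12 weeks, and 8.83, 7.66 and 8.38 in GnT-IX-deficient mice. The wild-type arrays on the diet were all below 0 weeks, while GnT-IX-deficient replicate 1 equalled the lowest 0-week value. Its difference at 3 weeks was -0.84 (SE 0.24) and missed the threshold (limma adjusted p = 0.0734).

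**Figure D1:**
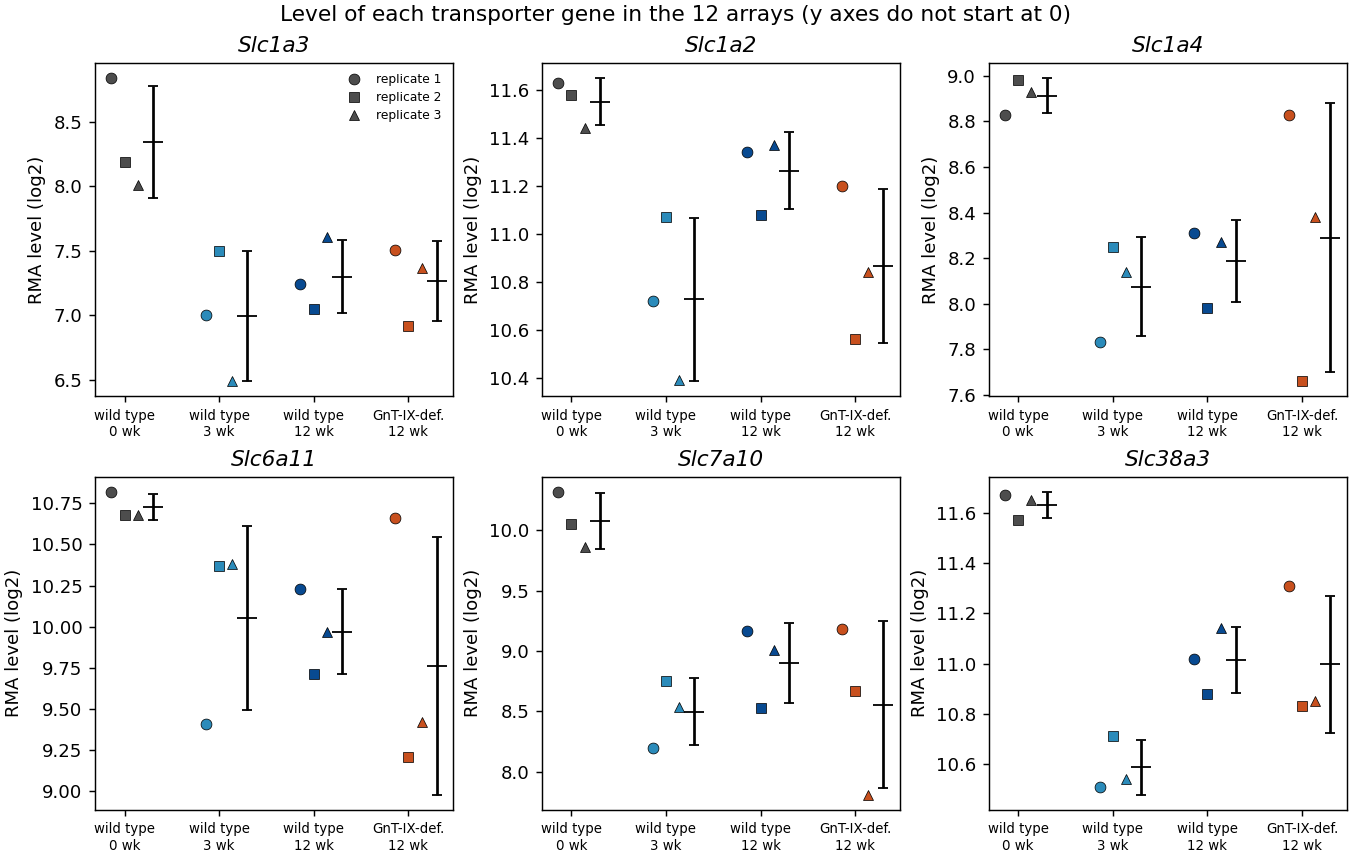
Log2 RMA level of each of the 6 transporter genes in the 12 arrays, by group (WT, wild type; KO, GnT-IX-deficient) and replicate, with the mean and SD of 3 arrays; each panel has its own axis that does not start at 0. In every panel the 0-week arrays are the highest group, and only the GnT-IX-deficient replicate 1 array of Slc1a4 reaches the lowest of them.

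The comparison of 3 with 0 weeks asked what the diet did to these carriers in its early weeks. Slc7a10, Slc1a3, Slc38a3 and Slc1a2 fell, and Slc1a4 and Slc6a11 were lower without passing the test. Thus 4 of the 6 genes were called, all lower, where limma called 3.24% of all genes in either direction and 1.63% lower. The groups did not overlap for 6 of 6, all lower at 3 weeks, against 10.5% of all genes. The median difference was -0.94 over the 6 genes and -0.017 over all genes. Because the 6 genes were chosen with earlier results of these data known, these contrasts with all genes are a description. Calls of single genes depended on single arrays. Slc38a3 passed with any 1 of the 6 arrays left out (limma adjusted p from 0.00970 to 0.0269), and Slc7a10 missed only without replicate 1 of 0 weeks (0.0504). Slc1a3 missed without that array (0.0839) or replicate 3 of 3 weeks (0.0569), and Slc1a2 without replicate 1, 2 or 3 of 0 weeks (0.141, 0.127 and 0.0740) or replicate 1 or 3 of 3 weeks (0.117 and 0.149), and also in a fit of only the 6 arrays compared (0.0560), in which Slc1a4 passed (0.0337).

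Microglial markers moved with these differences: 10 of 13 rose at 3 weeks and none fell, with a median of 2.32. Tyrobp averaged 5.06 at 0 weeks and 8.15 at 3 weeks, and C1qa 6.66 and 9.40. When each array's microglial marker mean entered the fit as a covariate, Slc1a3 differed by -1.34 (limma adjusted p = 0.487), Slc7a10 by -1.02 (0.671), Slc38a3 by -0.82 (0.489), Slc1a2 by -0.66 (0.737), Slc1a4 by -0.18 (0.956) and Slc6a11 by 0.49 (0.856). None of the 6 was called there (3 at an unadjusted p under 0.05), and limma called 3 genes in all. All 9 arrays of cuprizone-fed mice lay above the 3 arrays of 0 weeks in this mean.

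Other astrocyte genes were lower too. Of 11 measured astrocyte markers that are not transporters, 5 fell at 3 weeks and none rose (median -1.16), so the 6 genes were also read against the mean of these markers in the same array. On that scale Slc7a10 measured 0.40, 0.31 and 0.21 at 0 weeks and -0.49, -0.27 and -0.29 at 3 weeks. The groups stayed apart, and Slc7a10 differed by -0.66 (SE 0.27, limma adjusted p = 0.0287), against a median over all genes of 0.91 on this scale. Slc1a3 differed by -0.43 (0.138), Slc38a3 by -0.12 (0.638), Slc1a4 by 0.084 (0.751), Slc1a2 by 0.10 (0.696) and Slc6a11 by 0.25 (0.390), with limma adjusted p in brackets. The scale shifts all genes by its construction. Limma called 16951 of 19505 genes on it, nearly all higher (17178 at an unadjusted p under 0.05). Adjustment over all genes therefore changed p little here, and a call is not comparable with one in the main fit. Within that limit, Slc7a10 was the 1 gene of the 6 whose difference between 3 and 0 weeks passed the test on this scale. Whether its difference exceeds that of the other 5 was not tested.

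**Figure D2:**
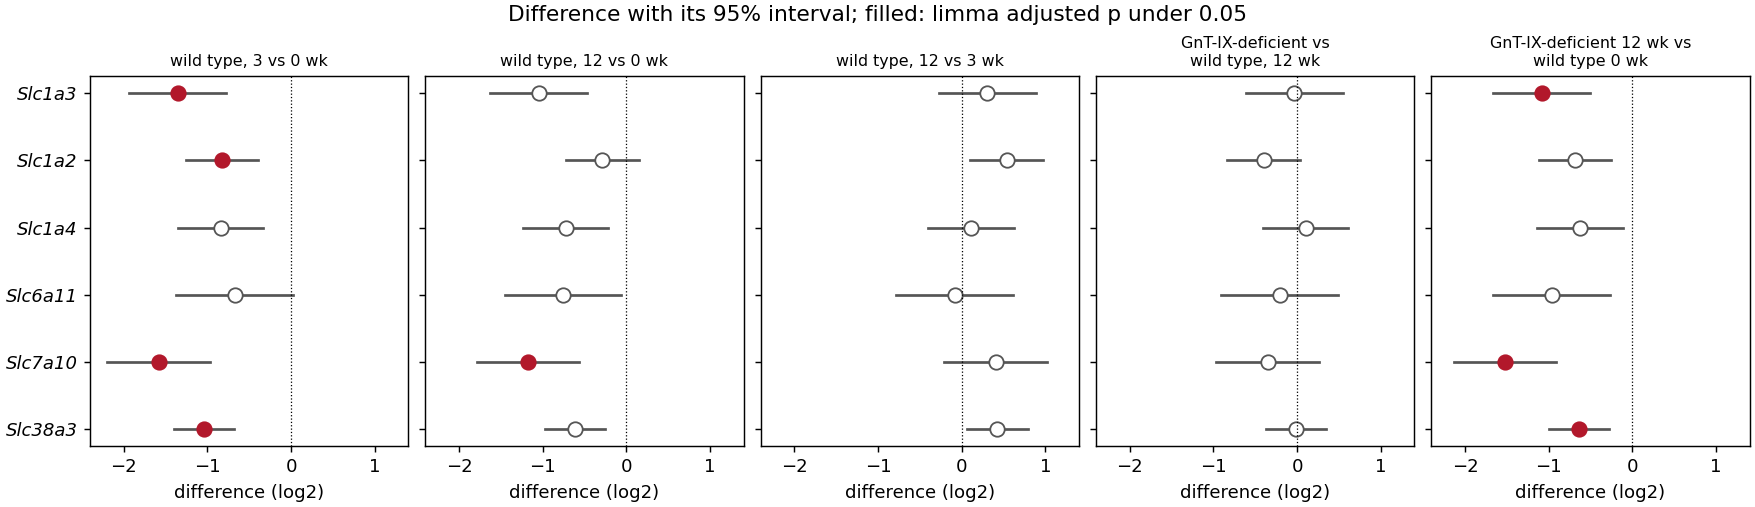
Difference in log2 level with its 95% interval for the 6 transporter genes in 5 comparisons; filled points have a limma adjusted p under 0.05. The filled genes are Slc7a10, Slc1a3, Slc38a3 and Slc1a2 at 3 against 0 weeks, Slc7a10 alone at 12 against 0 weeks, Slc7a10, Slc1a3 and Slc38a3 in GnT-IX-deficient mice at 12 weeks against wild type at 0 weeks, and none at 12 against 3 weeks or between genotypes at 12 weeks.

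After 12 weeks the 6 genes were still below 0 weeks, but 1 of 6, Slc7a10, passed the test (2.64% of all genes called, 0.523% lower). Slc7a10 fell by 1.17 to 8.90 ± 0.33 (SE of the difference 0.29, limma adjusted p = 0.0421), a ratio of 0.443. Slc1a3 differed by -1.05 (0.0545), Slc6a11 by -0.76 (0.288), Slc1a4 by -0.73 (0.142), Slc38a3 by -0.62 (0.0693) and Slc1a2 by -0.29 (0.573), with limma adjusted p in brackets. The groups did not overlap for 6 of 6, all lower at 12 weeks, against 9.95% of all genes, and the median was -0.74 against -0.013 over all genes. The single call depended on single arrays. Slc7a10 missed without replicate 1, 2 or 3 of 0 weeks (limma adjusted p = 0.185, 0.142 and 0.0582), without replicate 2 or 3 of 12 weeks (0.222 and 0.0904), and after a second quantile normalization (0.0501). Slc1a3, which just missed, passed under 5 of 18 alternatives, among them array weights (0.0228). All 13 microglial markers rose at 12 weeks (median 3.33) and 5 of 11 endothelial markers did, while 1 of 10 mature oligodendrocyte markers fell (7 lower at an unadjusted p under 0.05, median -0.74). With the microglial mean as a covariate Slc7a10 differed by -0.37 (limma adjusted p = 0.999), and with the oligodendrocyte mean by -1.41 (0.182). Of all genes limma called 0 and 3 in these fits, against 514 in the main fit. At an unadjusted p under 0.05 they held 0 and 6 of the 6 transporters. In both means the 12-week arrays lay wholly apart from the 0-week arrays, so these fits cannot tell cell types from diet. The part of these cell types in the differences was not tested. Against the astrocyte marker mean Slc7a10 measured -0.26, -0.45 and -0.47 at 12 weeks, a difference of -0.70 (limma adjusted p = 0.0911).

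From 3 to 12 weeks Slc1a2 and Slc38a3 had the higher levels at 12 weeks in all 3 arrays, and the other 4 genes overlapped. No overlap in the higher direction was seen for 2 of 6, against 7.83% of all genes. Slc1a2 differed by 0.54 (95% interval 0.10 to 0.97, limma adjusted p = 0.319) and Slc38a3 by 0.43 (0.07 to 0.79, adjusted p = 0.347). Limma called 0 of 6 genes (2 at an unadjusted p under 0.05), where it called 0.082% of all genes. Slc7a10 differed by 0.41 (adjusted p = 0.646), Slc1a3 by 0.30 (0.730), Slc1a4 by 0.11 (0.905) and Slc6a11 by -0.08 (0.956). The 12-week mean lay between those of 3 and 0 weeks for 5 of the 6 genes, with no call, and below both for Slc6a11.

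The genotype comparison at 12 weeks asked whether loss of GnT-IX altered these carriers in cuprizone-fed mice. No gene of the 6 passed the test. Limma called 0 of 6 (0 at an unadjusted p under 0.05), where it called 0.0256% of all genes, and the groups overlapped for 6 of 6, where 10.8% of all genes did not overlap. Slc1a2 had the largest difference, -0.40 (95% interval -0.83 to 0.04, limma adjusted p = 0.734), followed by Slc7a10 at -0.35 (-0.96 to 0.26, 0.828) and Slc6a11 at -0.21 (-0.90 to 0.49, 0.918). Slc1a4 differed by 0.10 (-0.41 to 0.61, 0.950), Slc1a3 by -0.03 (-0.61 to 0.55, 0.986) and Slc38a3 by -0.02 (-0.38 to 0.34, 0.989). These intervals leave room for differences of about the size seen with the diet in Slc1a2 and Slc6a11. The mean of 9 choroid plexus markers (11 listed) was 8.82, 7.76 and 6.09 in GnT-IX-deficient arrays and 5.13 to 5.94 in wild type at 12 weeks, and Ttr averaged 11.4 and 7.44. Limma called 0 of these 9 markers (7 higher at an unadjusted p under 0.05, median 2.04). The ependymal marker mean was 6.74, 7.73 and 7.43 in GnT-IX-deficient arrays and 6.07 to 6.72 in wild type, with 0 of 9 called by limma (7 higher at an unadjusted p under 0.05, median 0.95). With the choroid plexus mean as a covariate Slc7a10 differed by -0.95 and Slc6a11 by -0.86 (limma adjusted p = 0.920 each), while Slc1a3 turned to 0.33 and Slc1a4 to -0.077.

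GnT-IX-deficient mice at 12 weeks differ from wild type at 0 weeks in genotype and diet together, and this comparison shares its 0-week arrays with those of 3 and 12 weeks above. Slc7a10 fell by 1.52 (SE 0.29, limma adjusted p = 0.0126), Slc1a3 by 1.08 (0.0396) and Slc38a3 by 0.63 (0.0480). Slc6a11 differed by -0.96 (0.103), Slc1a2 by -0.68 (0.0699) and Slc1a4 by -0.62 (0.145). The 3 calls of 6 stood beside 4.11% of all genes called, 1.7% lower, and the groups did not overlap for 5 of 6, against 13.1% of all genes lower, with Slc1a4 the exception. GnT-IX-deficient replicate 1 held the highest value of its group for all 6 genes and replicate 2 the lowest for 5. Without replicate 1, limma called 6 of 6 (Slc6a11 -1.41, adjusted p = 0.0117; Slc1a2 -0.85, 0.0358; Slc1a4 -0.89, 0.0365). Slc1a3 missed without replicate 1 or 2 of 0 weeks (0.178 and 0.0950) or replicate 2 or 3 of the GnT-IX-deficient group (0.148 and 0.0838). Slc38a3 missed without any 1 array except GnT-IX-deficient replicate 1 (adjusted p from 0.0840 to 0.161), and Slc7a10 without replicate 1 or 2 of 0 weeks (0.0692 and 0.0559). In the same comparison 12 of 13 microglial (median 2.81), 5 of 11 endothelial, 3 of 9 choroid plexus and 2 of 9 ependymal markers rose, and 5 of 11 astrocyte markers fell (median -0.98). With the microglial mean as a covariate none of the 3 calls held (Slc7a10 -0.89, limma adjusted p = 0.783; Slc1a3 -1.07, 0.704; Slc38a3 -0.38, 0.871). With the choroid plexus mean Slc7a10 kept its call (-2.16, limma adjusted p = 0.0298), and Slc1a3 (-0.70, 0.419) and Slc38a3 (-0.78, 0.181) did not. Slc38a3 also missed with the oligodendrocyte mean (-0.81, limma adjusted p = 0.0569). Calls were lost over all genes in these fits. With the microglial mean limma called 3 of 19505 genes, against 801 in the main fit. It called 63 genes with the choroid plexus mean and 278 with the oligodendrocyte mean.

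Within groups the 6 genes tended to be high or low in the same arrays. Wild-type replicate 2 at 12 weeks was lowest of its group for 6 of 6 and had the highest microglial marker mean of all arrays, 9.09. GnT-IX-deficient replicate 1 was highest for 6 of 6 and had the lowest microglial mean of its group, 7.26, and the highest choroid plexus mean, 8.82. At 3 weeks replicate 1 was lowest for 4 genes, with a microglial mean of 8.87 against 7.00 and 6.51 in the other arrays, and replicate 2 was highest for 5. The arrays did not all follow that order. At 0 weeks replicate 1 was highest for 5 genes and also had the highest microglial mean, 5.55 against 5.00 and 5.15, and at 3 weeks replicate 3, with the lowest microglial mean, was lowest for 2 genes. The part of array composition in the differences between groups was not tested. Every array of cuprizone-fed mice lay above every 0-week array in the microglial mean. Against 0 weeks, the fits with that covariate therefore cannot tell microglial content from diet.

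**Figure D3:**
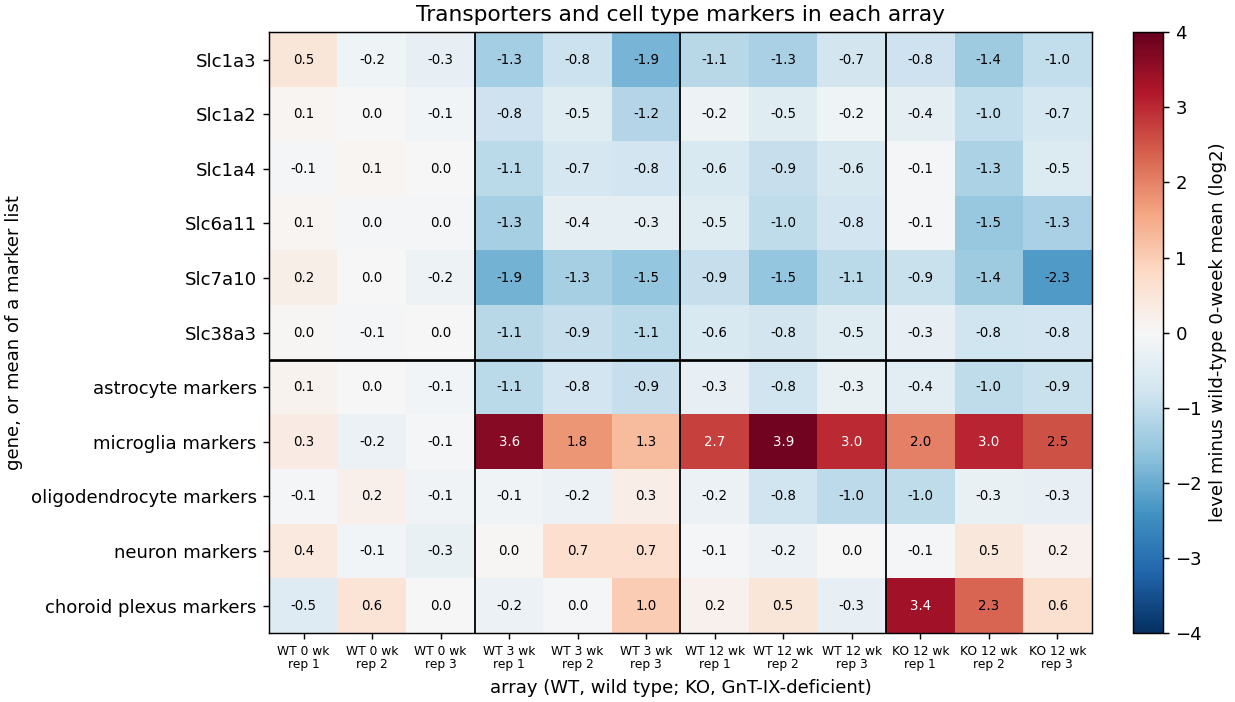
Level in each of the 12 arrays minus the wild-type mean at 0 weeks (log2, colour scale) for the 6 transporter genes and for the means of the cell type marker lists. The transporter rows are below 0 in the arrays of cuprizone-fed mice where the microglial row is above 0, and the choroid plexus row is highest in GnT-IX-deficient replicates 1 and 2.

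Over the 12 arrays, genes with patterns most like each transporter were found by Pearson's r among 9744 genes brighter than the median gene. These r values are a description and carry no p, because the arrays share the 4 groups. Ppara, a fatty acid sensing receptor, followed Slc1a2 with r = 0.98, ahead of Cyp2d22 (0.97) and Gldc (0.96), which encodes the glycine decarboxylase of the glycine cleavage system. Nat8 (0.98), Abcb9 (0.97) and Arhgef19 (0.97) were most like Slc7a10. Tnfrsf19 (0.98), Gli3 (0.96), a transcription factor of hedgehog signalling, and Nat8f7 (0.96) were most like Slc38a3. For Slc1a3 these were Plpp3 (0.95), a lipid phosphate phosphatase, Bcar3 (0.93) and Fam217b (0.92), for Slc1a4 Srgap3 (0.93), Stradb (0.92) and Rftn2 (0.92), and for Slc6a11 Tmc7 (0.93), Kdm3b (0.93) and Atp13a4 (0.92). Between members, r ran from 0.62 (Slc1a3 with Slc6a11) to 0.89 (Slc7a10 with Slc38a3). With group means removed, Slc1a3 stayed close to Slc1a2 (0.85) and Slc1a4 to Slc6a11 (0.84), while Slc1a3 with Slc6a11 dropped to 0.31.

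Relatives of the 6 carriers did not move as one. At 3 weeks 2 of 12 other SLC7 genes and heavy chains rose and 1 fell (median 0.21). Slc7a1, the cationic amino acid carrier CAT-1, rose by 1.72 from 6.17, 5.90 and 6.04 to 7.64, 7.80 and 7.84 (SE 0.22, limma adjusted p = 0.00119), and its groups did not overlap. Slc7a8, the neutral carrier LAT2, rose by 1.39 (adjusted p = 0.0188), and Slc7a2, a further cationic carrier, fell by 1.11 (0.00884). Of 10 other SLC38 carriers, Slc38a1 (1.03, adjusted p = 0.0305) and Slc38a2 (0.93, 0.0461), which bring glutamine and other neutral amino acids into cells, rose and none fell. Slc38a3 and these SLC38 genes thus differed in opposite directions. None of the 4 other SLC1 genes and none of 6 other SLC6 carriers passed (each 1 at an unadjusted p under 0.05). Slc1a1, the neuronal glutamate carrier EAAC1, differed by 1.02 (limma adjusted p = 0.127). Slc7a8 missed without replicate 1 or 2 of 0 weeks (limma adjusted p = 0.0715 and 0.0850) or replicate 1 of 3 weeks (0.0665), and Slc7a2 without replicate 1 of 0 weeks (0.0559). Slc38a1 missed without any 1 of the 6 arrays (0.0598 to 0.128), and Slc38a2 without replicate 1 or 3 of 0 weeks (0.132 and 0.165) or replicate 2 or 3 of 3 weeks (0.124 and 0.108). Slc38a2 missed under 10 of 18 alternatives in all, also after a second quantile normalization (limma adjusted p = 0.0511), with median centring (0.0528), array weights (0.0537) or the choroid plexus covariate (0.0578), and with only the 6 arrays compared (0.0937).

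Among 8 carriers known to be induced through ATF4, Slc7a1 and Slc38a2 rose at 3 weeks and none fell (median 0.28). Slc1a4, the transporter with CARE letters, was not on this list and differed by -0.84 (limma adjusted p = 0.0734). Slc7a11 measured 9.23, 8.83 and 8.67 at 0 weeks and 9.02, 9.00 and 8.29 at 3 weeks, overlapping groups with a difference of -0.14 (limma adjusted p = 0.842), although it holds 2 of the CARE matches printed above. Slc7a5, the large neutral carrier LAT1, differed by 0.86 (0.170), and Slc3a2, its heavy chain, by -0.14 (0.796). CARE letters occurred in the windows of 1 of 5 list genes with a promoter in the table. Bases beyond 250 before and 50 after a start, introns among them, were not searched.

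Genes that make or use what the carriers move were split. Of 8 measured genes of glutamate and glutamine metabolism (12 listed), Prodh, the first enzyme of proline breakdown, fell by 1.37 at 3 weeks (limma adjusted p = 0.0218), Gpt, which moves nitrogen between alanine and glutamate, by 1.11 (0.00993), and Aldh18a1, which starts proline synthesis from glutamate, rose by 0.97 (0.00892). Of 10 serine and glycine genes, 1 passed: Gldc fell by 1.28 (0.00707). Of 5 genes of GABA metabolism, Maob, the monoamine oxidase through which astrocytes make GABA from putrescine, fell by 1.42 (0.00471), and Gad1, which makes GABA from glutamate in neurons, rose by 1.73 (0.0165). The vesicular GABA carrier Slc32a1 rose by 1.37 (0.00649). Gad1 and Slc32a1 are neuronal genes, and the neuron marker mean, whose list contains Gad1, was 7.11 and 7.10 in replicates 2 and 3 of 3 weeks, 6.46 in replicate 1 and 6.14 to 6.83 at 0 weeks. Gad1 followed with 8.33, 7.56 and 6.53. The part of neuronal RNA was not tested. Of 7 measured genes of the sodium and potassium gradient (10 listed), Kcnk1, the potassium leak channel TWIK-1, fell by 1.91 from 10.30, 10.19 and 9.57 to 7.98, 8.17 and 8.17 (limma adjusted p = 0.00119). Gpt missed without replicate 1 of 0 weeks (limma adjusted p = 0.0602), Gad1 without replicate 2 (0.0792), and Prodh without replicate 1 or 2 of 0 weeks (0.107 and 0.0833) or replicate 1 or 3 of 3 weeks (0.0982 and 0.0800). With the microglial mean as a covariate none of the 13 list genes called at 3 weeks passed (limma adjusted p from 0.0624 for Slc32a1 to 0.844 for Slc7a8). Limma called 3 of 19505 genes with this covariate, against 632 in the main fit. The difference was 2.02 for Slc7a1, 2.08 for Slc32a1 and 1.10 for Aldh18a1 in that fit, larger than without the covariate, and 0.57 for Slc7a8, smaller.

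**Figure D4:**
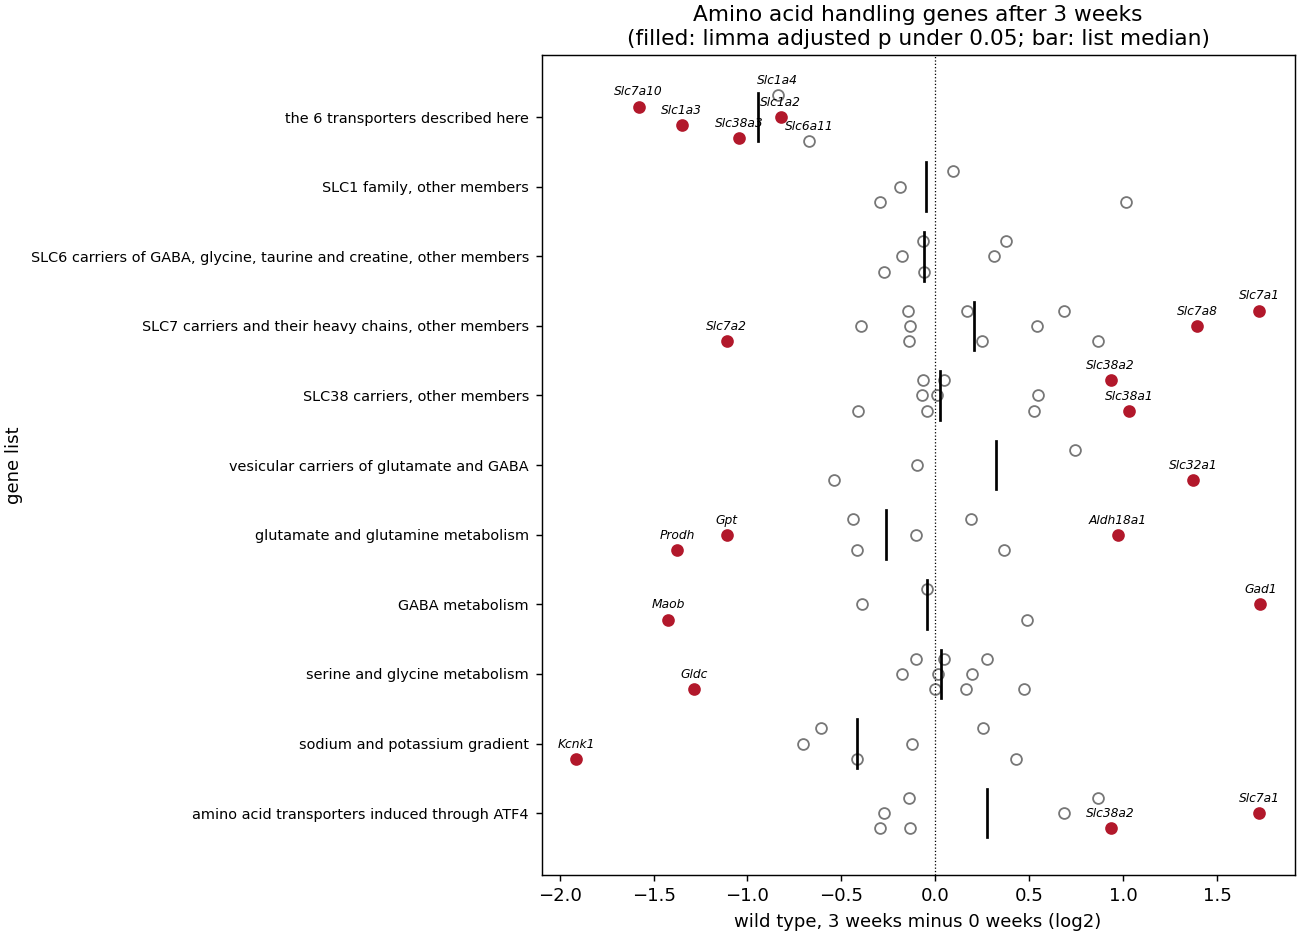
Difference in log2 level at 3 against 0 weeks in wild type for the 6 transporters and for the genes of 10 lists; filled points have a limma adjusted p under 0.05 and bars mark list medians. The 6 transporters all lie at or below -0.67, whereas the SLC7 and SLC38 lists spread to both sides of 0.

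At 12 weeks against 0 weeks fewer list genes passed, 4 of 66 against 13 of 66 at 3 weeks. At an unadjusted p under 0.05 these counts were 18 and 26, and limma called 2.64% and 3.24% of all genes. Slc7a8 was higher by 1.56 (limma adjusted p = 0.0114), Slc7a1 by 0.98 (0.0271), Gpt fell by 1.27 (0.00594) and Kcnk1 by 1.05 (0.0331). Gpt passed with any 1 of the 6 arrays left out. Slc7a8 missed without replicate 1 or 2 of 0 weeks (0.0512 and 0.0701) or replicate 2 of 12 weeks (0.0795), Slc7a1 without any 1 array but replicate 3 of 12 weeks (0.0596 to 0.129), and Kcnk1 without replicate 1 or 2 of 0 weeks (0.162 and 0.151) or replicate 2 or 3 of 12 weeks (0.184 and 0.0534). From 3 to 12 weeks Slc32a1 fell by 1.62 (adjusted p = 0.0212), a call lost without replicate 2 or 3 of either group (0.0735, 0.136, 0.0707 and 0.118). Limma called 0 of the 66 list genes between genotypes at 12 weeks (7 at an unadjusted p under 0.05). In GnT-IX-deficient mice at 12 weeks against wild type at 0 weeks, Slc7a1 (0.99) and Slc38a1 (0.91) rose, and Kcnk1 (-1.39), Prodh (-1.15), Gldc (-1.12), Gpt (-1.10) and Atp1b2 (-0.73), a sodium pump subunit of astrocytes, fell (limma adjusted p from 0.00864 to 0.0468). With 1 array left out in turn each of these 7 missed at least once, always without replicate 1 of 0 weeks (0.0561 to 0.179) and without replicate 2 (0.0523 to 0.142). Slc38a1 also missed without replicate 3 of 0 weeks (0.0689), Slc38a1, Prodh, Gldc and Atp1b2 without GnT-IX-deficient replicate 2 (0.0650 to 0.135), and these 4 and Slc7a1 without GnT-IX-deficient replicate 3 (0.0612 to 0.145).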

How the data were processed

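The authors' log2 values came from RMA in Affymetrix Expression Console 1.4, per the submitters' processing notes. The deposited table holds log2 values of 22206 transcript clusters in 12 columns, from 1.43 to 12.5. Of these, 19572 had 1 symbol in the platform's annotation, all matched to RefSeq, and 2634 were unnamed; the brightest cluster stood for each of 19505 genes. RMA compresses changes of dim transcripts. Labels name a pair of RNA extraction kits without tying them to samples. Tests used limma 3.58.1 and R 4.3.3 (8 residual degrees of freedom, two-sided, intervals of 95%), and the fit was tested on simulated data. Precision is limited by 3 arrays a group. The 6 genes and all lists were chosen with earlier results of these data known. Named besides the 6 were Mgat5b, up to 4 list genes past the threshold per comparison, and 3 genes of highest r per transporter; Slc1a1, Slc7a5, Slc7a11, Slc3a2 and single markers were named after their values were seen. Results were recomputed under 12 alternatives and with each of 6 arrays left out in turn. Replicate numbers were not used as pairs in the main fit. The 18 same-numbered pairs had r from -0.28 to 0.22 for deviations from group means, 6 of them over 0.1. With 3 arrays a group, these values cannot show whether same-numbered arrays were handled together. Figures were drawn with matplotlib 3.10.9.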

Additional observations from a re-analysis of the deposited data

How the results depend on the processing

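Counts of genes and transporters called by limma are given here for settings that moved them by over 1.5 times, and signs of transporters where they turned; the cause was not tested unless stated. With microglial marker means as a covariate, calls at 3 against 0 weeks numbered 3 genes and 0 transporters (3 of 6 at an unadjusted p under 0.05), at 12 against 0 weeks 0 genes and 0 transporters (848 genes and 0 of 6 unadjusted), at 12 against 3 weeks 0 genes (1858 unadjusted), and for GnT-IX-deficient mice against 0 weeks 3 genes and 0 transporters (1 of 6 unadjusted). Slc6a11 turned to 0.49 (3 against 0 weeks), 0.91 (12 against 0), 0.42 (12 against 3) and 0.36 (GnT-IX-deficient against 0 weeks) in that fit, and Slc1a4 to 0.22 (12 against 0), -0.092 (genotype at 12 weeks) and 0.13 (GnT-IX-deficient against 0 weeks). With the oligodendrocyte marker mean, 12 against 0 weeks gave 3 genes and 0 transporters (6 of 6 unadjusted), 12 against 3 weeks 0 genes (1004 unadjusted), and GnT-IX-deficient against 0 weeks 278 genes. Slc1a3 turned there to -0.11 and Slc1a4 to -0.12 (12 against 3), and between genotypes Slc1a3 to 0.064 and Slc38a3 to 0.035. With the choroid plexus mean, 1 gene was called between genotypes, where Slc1a3 turned to 0.33 and Slc1a4 to -0.077, and 63 genes with 1 transporter in GnT-IX-deficient mice against 0 weeks.

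Relative to the astrocyte marker mean, which moves the median of all genes to 0.91, 0.46, -0.44, 0.29 and 0.77 in the 5 comparisons by its construction, limma called 16951 genes (16917 higher) and 1 transporter at 3 against 0 weeks, 1788 genes (1783 higher) and 0 transporters at 12 against 0 (2 of 6 unadjusted), 678 genes (676 lower) at 12 against 3, 64 genes (63 higher) between genotypes, and 12927 genes (12900 higher) with 1 transporter in GnT-IX-deficient mice against 0 weeks. Signs turned for Slc1a2 (0.10), Slc1a4 (0.084) and Slc6a11 (0.25) at 3 against 0 weeks, Slc1a2 (0.19) at 12 against 0, Slc1a3 (-0.15), Slc1a4 (-0.34), Slc7a10 (-0.042) and Slc38a3 (-0.022) at 12 against 3, Slc1a3 (0.27), Slc6a11 (0.095) and Slc38a3 (0.28) between genotypes, and Slc1a2 (0.094), Slc1a4 (0.15), Slc38a3 (0.14) and Atp1b2 (0.044) in GnT-IX-deficient mice against 0 weeks.

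At 12 against 0 weeks, transporters called numbered 0 after a second quantile normalization (5 of 6 unadjusted), 2 after median centring, 2 without the dimmest 30% of genes, 3 with trend and robust variance, 3 with array weights (919 genes) and 4 with only the 6 arrays compared. At 12 against 3 weeks, genes called numbered 9 without the dimmest genes, 30 with trend and robust variance, 33 with array weights and 9 with only 6 arrays. Median centring turned Slc38a3 to 0.0033 between genotypes. With the replicate number as a block, Slc1a2 missed at 3 against 0 weeks (-0.82, adjusted p = 0.0530) and Slc38a3 in GnT-IX-deficient mice against 0 weeks (-0.63, 0.0591), and the block changed no other call of the 6 transporters.

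With 1 array left out in turn, genes called ranged from 192 to 643 at 3 against 0 weeks, 77 to 504 at 12 against 0, 0 to 146 at 12 against 3, 3 to 49 between genotypes and 98 to 1062 in GnT-IX-deficient mice against 0 weeks; transporters called ranged from 1 to 4, 0 to 1, 0 to 0, 0 to 0 and 0 to 6. At 12 against 3 weeks Slc1a4 turned without replicate 1 of 3 weeks (-0.0083), and Slc6a11 without replicate 2 (0.075) or 3 (0.080) of 3 weeks or replicate 2 of 12 weeks (0.047). Between genotypes signs turned without wild-type replicate 3 (Slc1a3 0.12, Slc38a3 0.047), GnT-IX-deficient replicate 1 (Slc1a4 -0.17), replicate 2 (Slc1a3 0.14, Slc6a11 0.070, Slc38a3 0.067) and replicate 3 (Slc7a10 0.022, Slc38a3 0.057). These values ranged from -0.0083 to 0.22 (Slc1a4) and -0.41 to 0.080 (Slc6a11) at 12 against 3 weeks, and between genotypes from -0.16 to 0.14 (Slc1a3), -0.17 to 0.42 (Slc1a4), -0.66 to 0.070 (Slc6a11), -0.66 to 0.022 (Slc7a10) and -0.17 to 0.067 (Slc38a3). None of these sign changes at 12 against 3 weeks or between genotypes involved a called transporter. Against 0 weeks, Slc1a3 and Slc7a10 were lower in all 3 comparisons under each of the 18 alternatives. The number of arrays, 3 a group, limits precision.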
